A study of Mus musculus with 57 samples.

Results

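Mice that serve as controls in 1 toxicology study receive the same treatment, and their livers can still differ from each other. The 9 livers described here came from male, wild-type C57BL/6JJcl mice given 0.5% methylcellulose, a thickener used to suspend compounds, by oral gavage. They are the gavage vehicle mice that the labels number 7, 8, 9, 10 and 12 (5 livers) and 15, 16, 17 and 18 (4 livers), out of 57 livers in the series, 17 of them from vehicle mice. The labels give both ranges the same history: 6 weeks of age, 1 week of acclimatisation, a 12 h fast, a single dose, and collection 24 h later from the outer part of the left lateral lobe after perfusion. The labels name no litter, cage, day, clock time of dosing or collection, or feeding after the dose, and they give no meaning to the numbers. The boundary between 12 and 15 was placed because an earlier fit on these same livers had called genes across it. Every difference between the 2 ranges is therefore a description of these 9 livers. Genes are called below by edgeR's test to mark the clearest of them, and no call supports the boundary. The remaining vehicle mice were 4 gavage mice numbered 1 to 4, 2 mice given 0.9% saline intraperitoneally and 2 given it intravenously (numbers 7 and 8 for each route).

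The circadian clock of the hepatocyte is a transcriptional loop. ARNTL (BMAL1) and CLOCK bind E-boxes and drive their own repressors, the PER and CRY proteins and the nuclear receptors NR1D1 and NR1D2 (REV-ERB), as well as the output factors DBP and TEF, which bind D-boxes. NR1D1 and NR1D2 in turn repress Arntl and other genes through the ROR element (RORE), so the 2 arms peak at opposite times of day. Feeding acts on the same tissue: insulin and nutrients raise lipid and sterol synthesis through SREBP factors and lower the genes of glucose production, and fasting does the reverse and engages PPARA. A bulk liver also holds Kupffer cells, the resident macrophages, and smaller numbers of other leukocytes. In bulk RNA, fewer cells of a type and less RNA per cell cannot be told apart.

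Expression was measured by single-end RNA sequencing of poly(A) libraries, and the values used are estimated counts per gene. Library totals over the 9 livers lay between 18010006 and 28093184. Levels are given in CPM, counts scaled with TMM factors to a common library total. Differences are edgeR log2 fold changes of mice 15 to 18 over mice 7 to 12, each ± its standard error (SE). Over 11944 genes, pairs of mice within 7 to 12 correlated at a median r of 0.9593 (10 pairs, 0.9486 to 0.9628). Pairs within 15 to 18 had a median of 0.9467 (6 pairs, 0.9211 to 0.9598). Pairs across the boundary had a median of 0.9435 (20 pairs, 0.9302 to 0.9572). The first principal component of the 9 livers carried 23.2% of the variance and did not separate the ranges. The second carried 18.3%, with mice 7 to 12 at 10.8 to 23.2 and mice 15 to 18 at -45.6 to -6.33. The mitochondrially encoded share of counts was 12.4% to 21.7% in mice 7 to 12 and 7.48% to 14.04% in mice 15 to 18. The share from cytosolic ribosomal protein genes was 2.55% to 3.21% and 3.50% to 4.799%, with no overlap. The mitochondrially encoded genes were left out in 1 alternative fit, given in the last section. Beyond that fit, the part of either share in the results below was not tested. The hepatocyte markers Alb, Apoa1, Ttr, Cps1, Ass1, Cyp3a11, Serpina1a and Trf summed to 83400 to 90200 CPM in mice 7 to 12 and 70900 to 97100 CPM in mice 15 to 18.

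Of 13427 genes tested, 158 (1.18%) were called at an adjusted p under 0.05 by edgeR's quasi-likelihood test, 109 higher in mice 15 to 18 (0.812%) and 49 lower (0.365%). These are descriptive counts, since the boundary came from the same contrast. All 158 showed no overlap between the ranges, as did 938 genes in all (6.99%; 495 higher, 3.69%, and 443 lower, 3.3%). Calls below are edgeR's unless another tool is named. DESeq2 called 774 of 13921 genes (5.56%) and limma 232 of 13427 (1.73%). Of edgeR's called genes, 81 differed by 1 or more on the log2 scale. The count was fragile to single mice. It was 15 without mouse 15 and 14 without mouse 16. It was 26, 31, 16, 97 and 45 without mice 7, 8, 9, 10 and 12. It was 461 without mouse 17. Without mouse 18 it was 140, of which 89 were shared with the 158. The 11 genes called in all 9 of these fits were Acly, Thrsp, Aacs, Pgd, Aqp8, Chrna4, Cd63, Tubb2a, Gstp3, Gm3776 and 2010003K11Rik. The gene lists used below, with 4 of them chosen after the values were seen, hold 53 of the 158 called genes.

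Nr1d1, Dbp and Tef, which belong to the E-box-driven arm of the clock, were called lower in mice 15 to 18. The core repressor list (Per1, Per2, Per3, Cry2, Nr1d1, Nr1d2, Ciart, Bhlhe40, Bhlhe41) had 8 of 9 members tested, none called higher and 1 called lower (1.18% of all genes were called), with a median log2 fold change of -0.76 against -0.01 over all genes. DESeq2 called 1 member higher and 2 lower (5.56% of all genes). The list median was -0.45 with limma and ran from -0.83 to -0.44 over the fits without 1 mouse, smallest in size without mouse 12. Nr1d1, the heme-binding repressor, stood at 48.3, 41.6, 53.6, 57.2 and 68.7 CPM in mice 7, 8, 9, 10 and 12, and at 4.26, 7.2, 2.82 and 11.6 CPM in mice 15, 16, 17 and 18. Every mouse from 15 to 18 was below every mouse from 7 to 12, and the fitted difference was 8.21-fold (log2 fold change -3.04 ± 0.39). On either side of the boundary, mouse 12 was at 68.7 CPM and mouse 15 at 4.26 CPM. The output factors Dbp and Tef were the 2 members called, both lower, in a list of 13 outputs with none called higher and a median of -0.22. That median ran from -0.49 without mouse 17 to -0.04 without mouse 7. DESeq2 called 3 outputs lower, and without mouse 17 edgeR called 1 higher and 1 lower. Dbp, whose D-box targets include detoxification genes, was at 3.43, 3.55, 3.61, 5.85 and 13.1 CPM in mice 7 to 12 and 1.28, 1.38, 0.971 and 1.12 CPM in mice 15 to 18. Mouse 12 was far above the other mice and mice 15 to 18 lay in a narrow band (log2 fold change -2.30 ± 0.45). Tef was at 29.7, 25.8, 50.8, 25.6 and 43.5 CPM in mice 7 to 12 and 15.5, 16.7, 16.9 and 11.5 CPM in mice 15 to 18, again without overlap (log2 fold change -1.20 ± 0.24). Among the 9 fits that leave out 1 mouse, Nr1d1 lost its call without mouse 15 and without mouse 16. Dbp kept it only without mouse 12, and Tef only without mouse 10 or mouse 17. With library totals in place of TMM, Dbp and Tef were not called.

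The promoters show which of these letters are present at 3 of the genes. Windows run from 250 bases before to 50 after the annotated start, from RefSeq (GRCm38.p6), are read on the gene's strand, and carry each match in capitals. They were chosen because they hold a match. Tef and Arntl have 2 windows each: both of Tef hold the E-box and 1 is shown, and of Arntl the 1 with the match is shown. Cry1 of the RORE-driven arm also holds an E-box, and Per1, which holds one too, differed by -0.09 ± 0.17.

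Tef, chr15:81802423-81802722, plus strand, E-box 127 bases before the start: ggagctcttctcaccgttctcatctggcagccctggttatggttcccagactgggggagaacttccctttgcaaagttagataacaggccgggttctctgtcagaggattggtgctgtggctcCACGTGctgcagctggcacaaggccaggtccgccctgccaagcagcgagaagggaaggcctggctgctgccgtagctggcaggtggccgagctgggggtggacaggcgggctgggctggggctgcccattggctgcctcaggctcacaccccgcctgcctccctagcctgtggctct
Per3, chr4:151044616-151044915, minus strand, D-boxes 205 and 158 bases before the start: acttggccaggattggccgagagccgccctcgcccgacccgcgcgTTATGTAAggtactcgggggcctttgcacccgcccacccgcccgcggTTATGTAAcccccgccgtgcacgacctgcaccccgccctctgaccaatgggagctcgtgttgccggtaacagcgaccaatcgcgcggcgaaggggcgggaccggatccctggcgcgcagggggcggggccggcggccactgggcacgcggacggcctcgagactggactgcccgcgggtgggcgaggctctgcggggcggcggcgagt
Arntl, chr7:113207261-113207560, plus strand, RORE 27 bases after the start: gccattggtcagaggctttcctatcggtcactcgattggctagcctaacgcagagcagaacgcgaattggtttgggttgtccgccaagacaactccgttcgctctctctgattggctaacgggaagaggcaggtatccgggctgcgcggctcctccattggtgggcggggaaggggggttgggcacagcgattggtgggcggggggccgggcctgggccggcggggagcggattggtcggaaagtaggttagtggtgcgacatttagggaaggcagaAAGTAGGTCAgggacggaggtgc

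Both strands were searched for CACGTG (E-box), TTANGTAA (D-box, where N is any base) and the RORE. None of these patterns contains another. Of 32851 windows of this length, 7.15% held the E-box, 2.32% the D-box and 0.606% the RORE. Among the repressor genes with a window (7 of 9), Bhlhe41, Ciart and Per1 held the E-box, in 3 of 8 windows, and Per3 the D-box. Among the outputs the E-box was present in Tef, Coq10b, Lonrf3 and Tspan4, in 5 of 15 windows. The windows of Nr1d1 and Dbp do not hold the letters CACGTG. A match is a description of the letters, not evidence of binding.

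The remaining genes of the clock lists were not called. Per3, a period gene, was at 1.32, 0.921, 1.31, 1 and 2.26 CPM in mice 7 to 12 and 0.426, 0.671, 0.825 and 0.541 CPM in mice 15 to 18, without overlap but not called (log2 fold change -1.13 ± 0.35). Nr1d2 overlapped only through mouse 8, at 3.6 CPM against 1.79 to 4.48 CPM in mice 15 to 18 (log2 fold change -1.30 ± 0.36). Per1 and Per2, which are also induced acutely by hormones and feeding, showed no such difference, with log2 fold changes of -0.09 ± 0.17 and 0.10 ± 0.34. Bhlhe40, an E-box repressor that also responds to hypoxia and nutrients, pointed the other way at 25, 27.5, 30.9, 35.1 and 43 CPM in mice 7 to 12 and 40, 54.6, 44.7 and 60.6 CPM in mice 15 to 18 (log2 fold change 0.64 ± 0.19, not called). The RORE-driven list (Arntl, Clock, Npas2, Cry1 and Nfil3 among them) had 0 of 7 members called in either direction and a median of 0.08, while DESeq2 and the fit without mouse 17 each called 1 higher. The sign of that median turned with single mice, from -0.11 without mouse 17 to 0.11 without mouse 7. Arntl was at 11.7, 9.21, 9, 10.8 and 7.32 CPM in mice 7 to 12 and 8.49, 9.62, 12.5 and 9.92 CPM in mice 15 to 18 (log2 fold change 0.09 ± 0.17), and Clock differed by 0.08 ± 0.28. Upp2, a uridine phosphorylase outside the lists, was called lower at 129, 97.3, 169, 116 and 144 CPM in mice 7 to 12 and 37.5, 17, 40.8 and 57.1 CPM in mice 15 to 18 (log2 fold change -1.77 ± 0.31). Of the fits without 1 mouse, it was called only without mouse 10, 17 or 18. Csnk1d, the casein kinase that phosphorylates PER proteins, was chosen after its values were seen and was called lower at 57.6, 69.8, 61.2, 75.3 and 61.4 CPM in mice 7 to 12 and 37.2, 33.7, 42.4 and 36.8 CPM in mice 15 to 18 (log2 fold change -0.78 ± 0.11). It lost its call with library totals and without mouse 8, 9, 15 or 16.

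**Figure D1:**
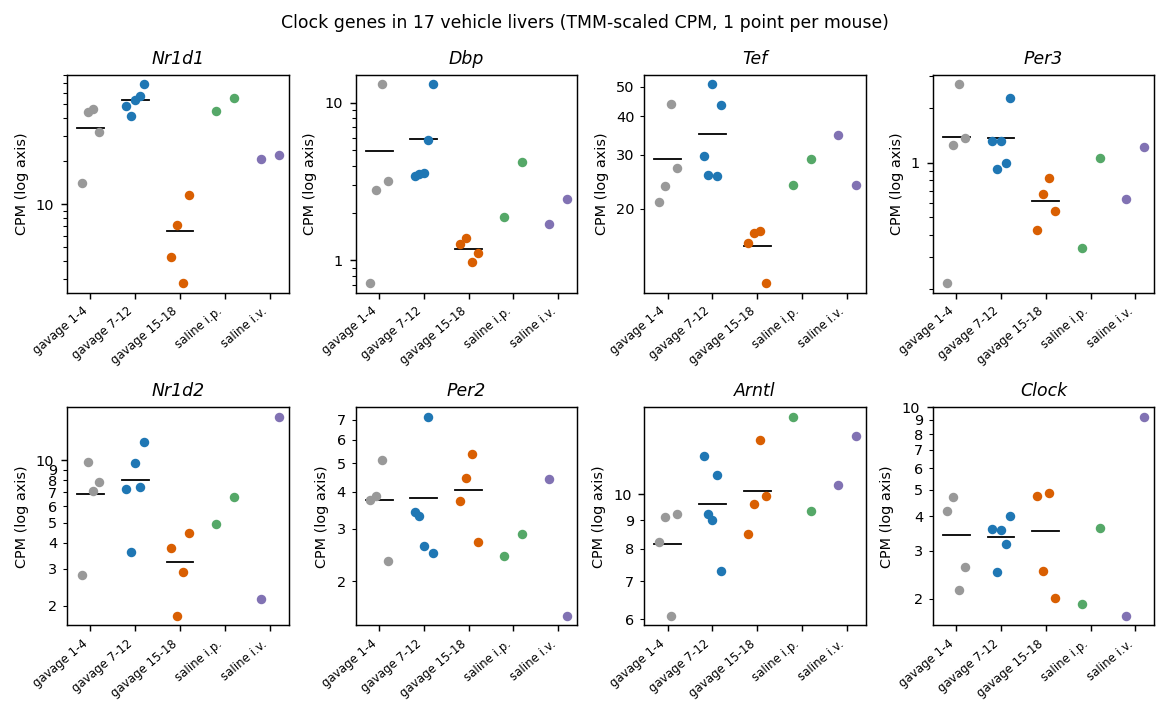
CPM (log axis) of 8 clock genes in each of the 17 vehicle livers, grouped by mouse number or saline route along the horizontal axis, with 1 point per mouse and a bar at the mean of each gavage group. Nr1d1, Dbp, Tef and Per3 are lower in all of gavage mice 15 to 18 than in any of 7 to 12, whereas Per2, Arntl and Clock overlap.

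Of 20 fed-state lipogenesis genes, all tested, 16 were on the higher side in mice 15 to 18 and 4 on the lower. Of them 9 were called higher and none lower (0.812% and 0.365% over all genes), 12 lay above the other range without overlap (3.69% over all genes), and the median log2 fold change was 0.84. Fasn, fatty acid synthase, was at 266, 293, 247, 290 and 262 CPM in mice 7 to 12 and 641, 1180, 459 and 597 CPM in mice 15 to 18. Mouse 16 was far above the rest, and no value of mice 15 to 18 reached down to those of mice 7 to 12 (log2 fold change 1.42 ± 0.24). Acly, which makes cytosolic acetyl-CoA from citrate, was at 100, 68, 73.8, 88.8 and 70 CPM in mice 7 to 12 and 191, 251, 201 and 159 CPM in mice 15 to 18, a difference of 2.52-fold (log2 fold change 1.34 ± 0.16). Pnpla3, a lipid droplet protein under SREBP and ChREBP control, was at 0.629, 0.307, 1.68, 2.47 and 0.184 CPM in mice 7 to 12 and 13, 14, 15.5 and 7.22 CPM in mice 15 to 18 and differed by 11.6-fold (log2 fold change 3.54 ± 0.62). The log2 value was 4.19 without mouse 10 and 2.84 with limma, and the call was lost without mouse 7, 8, 9, 12, 15 or 16. Thrsp, a regulator of lipogenesis, was at 329, 233, 238, 274 and 330 CPM in mice 7 to 12 and 583, 706, 609 and 549 CPM in mice 15 to 18 (log2 fold change 1.13 ± 0.14). Tkfc, Me1, Gpam, Acss2 and Acaca were called as well, with log2 fold changes from 0.86 (Acaca, acetyl-CoA carboxylase) to 1.19 (Tkfc, which phosphorylates dihydroxyacetone and glyceraldehyde from fructose). Srebf1, the insulin-induced gene that encodes SREBP-1, was not among them, at 390, 482, 348, 419 and 462 CPM in mice 7 to 12 and 249, 485, 306 and 319 CPM in mice 15 to 18 with overlapping ranges (log2 fold change -0.29 ± 0.19). Scd1, the stearoyl-CoA desaturase, differed by 0.34 ± 0.19 and overlapped too. Without 1 mouse at a time, between 2 and 10 members were called higher and none lower. Acly and Thrsp were called in all of these fits. Fasn was called only without mouse 10, 16, 17 or 18, and Gpam only without mouse 10, 12, 17 or 18. Tkfc, Me1, Acss2 and Acaca were not called with library totals.

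Cholesterol genes had 22 of 23 tested members on the higher side, 6 called higher (0.812% of all genes) and none lower. Without overlap were 10, all higher (3.69% of all genes), and the median was 0.86. Dhcr7, the last enzyme of the Kandutsch-Russell route, was at 39.5, 47.6, 42.2, 58.7 and 52.5 CPM in mice 7 to 12 and 165, 162, 78.1 and 123 CPM in mice 15 to 18 (log2 fold change 1.47 ± 0.22). Lss, lanosterol synthase, was at 13.9, 11.8, 19.1, 29.5 and 22.3 CPM in mice 7 to 12 and 47.3, 63.9, 45.4 and 55 CPM in mice 15 to 18 (log2 fold change 1.46 ± 0.25). Fdps, which makes farnesyl diphosphate, was at 83.8, 96.7, 96.2, 178 and 81.7 CPM in mice 7 to 12 and 263, 306, 249 and 293 CPM in mice 15 to 18 (log2 fold change 1.39 ± 0.22). In these 3 genes mouse 10 held the highest value of its range. Pmvk, phosphomevalonate kinase, and Nsdhl, a sterol dehydrogenase, were called with log2 fold changes of 1.30 and 1.18. Lss and Nsdhl were not called with library totals. Of the fits without 1 mouse, both were called only without mouse 10 or 17, Dhcr7 also without 12 or 18, and Fdps also without 18. Pmvk lost its call without mouse 9, 15 or 16. Sqle, squalene epoxidase, did not overlap and was not called, at 4.35, 4.12, 3.61, 13.4 and 2.81 CPM in mice 7 to 12 and 19.3, 14.7, 18.4 and 17.4 CPM in mice 15 to 18 (log2 fold change 1.63 ± 0.41, and 2.24 without mouse 10). Insig1, the sterol sensor, was the 1 member on the other side at -0.28 ± 0.18. The sterol regulatory element, searched on both strands as TCACNCCAC, was present in 1.24% of all windows, in Hmgcs1 alone among 15 cholesterol genes with a window and in Mlxipl alone among 17 lipogenesis genes. Leaving out 1 mouse gave 0 to 9 members called higher and medians from 0.74 to 1.01. Aacs, acetoacetyl-CoA synthetase, which feeds ketone carbon into lipid and sterol synthesis and lies outside the lists, was at 15.6, 7.89, 8.38, 17.4 and 7.18 CPM in mice 7 to 12 and 111, 185, 91.1 and 77.3 CPM in mice 15 to 18, a difference of 10.4-fold (log2 fold change 3.37 ± 0.35). It was called whichever single mouse was left out.

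Genes of glucose production were mostly on the lower side in mice 15 to 18, as 9 of 12 members were. None was called higher and 1 was called lower (0.365% of all genes), with a median of -0.41. Without mouse 18, 4 were called lower, and none was with library totals or without any other single mouse. Pck1, the cytosolic phosphoenolpyruvate carboxykinase, was at 1080, 884, 1300, 928 and 1110 CPM in mice 7 to 12 and 300, 259, 370 and 690 CPM in mice 15 to 18. Mouse 18 lay nearest to mice 7 to 12 and the ranges did not meet (log2 fold change -1.38 ± 0.28). Igfbp1, a binding protein that insulin represses, was at 263, 357, 337, 162 and 225 CPM in mice 7 to 12 and 8.72, 22.7, 63 and 212 CPM in mice 15 to 18, a wide spread within 4 mice (log2 fold change -1.79 ± 0.76, not called, and -3.08 without mouse 18). Mice 15 and 16 were lowest and mouse 18 lay within the range of mice 7 to 12. Irs2, the insulin receptor substrate, was at 4.23, 7.54, 7.54, 6.69 and 3.55 CPM in mice 7 to 12 and 1.12, 1.86, 1.65 and 4.15 CPM in mice 15 to 18 (log2 fold change -1.40 ± 0.40), with mouse 18 again above a mouse of the other range. Tat, tyrosine aminotransferase, was at 1420, 1370, 1190, 1040 and 1510 CPM in mice 7 to 12 and 592, 646, 842 and 1080 CPM in mice 15 to 18 (log2 fold change -0.71 ± 0.19). G6pc, the glucose-6-phosphatase catalytic subunit, was at 219, 241, 176, 189 and 159 CPM in mice 7 to 12 and 97.7, 125, 232 and 220 CPM in mice 15 to 18 (log2 fold change -0.21 ± 0.26). Mice 17 and 18 lay within the range of mice 7 to 12 and mice 15 and 16 below it. Pck1 lost its call with library totals and kept it only without mouse 18 among the fits that left out 1 mouse.

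PPARA targets lay on both sides: 2 of 18 were called higher (0.812% of all genes), none lower, and the median was 0.17. The median ran from 0.05 to 0.23 over the fits without 1 mouse. Neither called gene, Cyp4a14 or Plin2, was called with library totals. Without 1 mouse, Cyp4a14 kept its call only without mouse 17 or mouse 18, and Plin2 only without mouse 17. Cyp4a14, a fatty acid omega-hydroxylase, was at 474, 466, 556, 551 and 470 CPM in mice 7 to 12 and 999, 1080, 731 and 689 CPM in mice 15 to 18 (log2 fold change 0.81 ± 0.15). Cyp4a10 was at 314, 346, 404, 371 and 327 CPM in mice 7 to 12 and 656, 891, 447 and 506 CPM in mice 15 to 18 (log2 fold change 0.84 ± 0.19, without overlap but not called). Plin2, the coat protein of lipid droplets, was at 185, 221, 192, 183 and 191 CPM in mice 7 to 12 and 257, 327, 280 and 283 CPM in mice 15 to 18 (log2 fold change 0.57 ± 0.10). In contrast Angptl4, the lipoprotein lipase inhibitor that rises on fasting, was at 36.7, 39.9, 66.6, 29.5 and 48.8 CPM in mice 7 to 12 and 11.6, 13.8, 11.9 and 36.2 CPM in mice 15 to 18 (log2 fold change -1.25 ± 0.38). It was low in mice 15, 16 and 17 and not in mouse 18. Cpt1a, the carnitine palmitoyltransferase of mitochondrial fat uptake, differed by -0.14 ± 0.18. Fgf21, the fasting hormone, was at 0.458, 0.395, 0.785, 0.702 and 0.184 CPM in mice 7 to 12 and 0.581, 3.06, 1.07 and 0.758 CPM in mice 15 to 18, highest in mouse 16. Of the 12 glucocorticoid-responsive genes edgeR called 1, Zbtb16, a zinc finger factor, which was lower (0.365% of all genes), at 12.1, 17.3, 25.3, 12.4 and 30.1 CPM in mice 7 to 12 and 6.63, 6.64, 3.06 and 3.65 CPM in mice 15 to 18 (log2 fold change -1.95 ± 0.36). Its call was lost with library totals and without 1 mouse, except without mouse 17 or mouse 10. DESeq2 called 1 of these genes higher and 4 lower. Fkbp5, the chaperone used as a glucocorticoid readout, was at 14.6, 17.2, 28.7, 20 and 23.2 CPM in mice 7 to 12 and 12.5, 13.6, 7.72 and 11.8 CPM in mice 15 to 18, without overlap and not called (log2 fold change -0.85 ± 0.23). Mt1 and Mt2, the metallothioneins, were highest in mouse 18, at 655 and 438 CPM. EdgeR called none of 10 ATF4 target genes tested on all 9 livers. DESeq2 called 1 higher and 1 lower, limma 1 lower, and edgeR 1 higher without mouse 17 and 1 lower without mouse 18. Chac1, the glutathione-degrading enzyme among them, was at 5.26, 6.58, 6.33, 4.41 and 6.03 CPM in mice 7 to 12 and 0.349, 0.746, 0.486 and 3.39 CPM in mice 15 to 18 without overlap (log2 fold change -2.16 ± 0.59, and -3.41 without mouse 18).

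**Figure D2:**
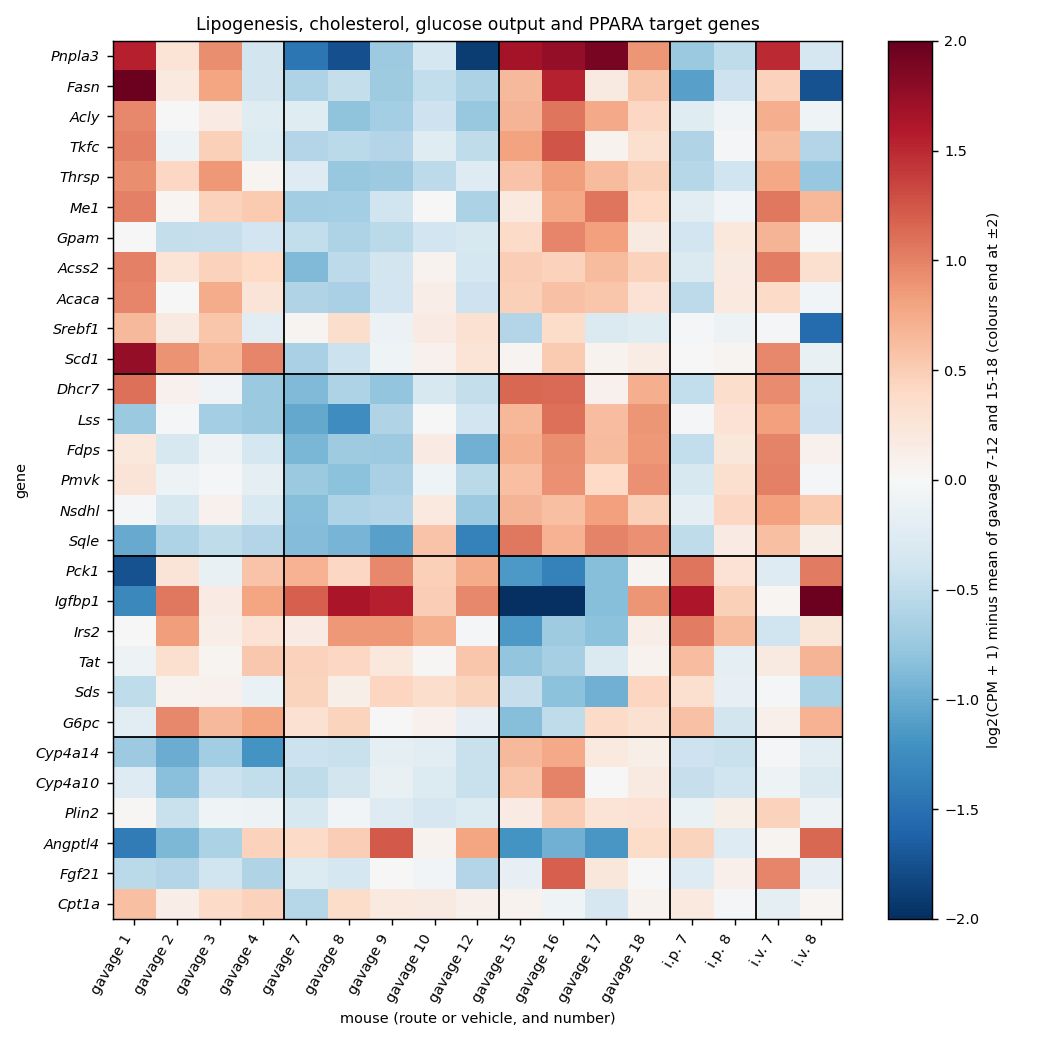
Colour gives log2(CPM + 1) of each gene (rows) in each of the 17 vehicle livers (columns) minus its mean over gavage mice 7 to 12 and 15 to 18, with colours ending at ±2. Lines separate the 4 gene groups (lipogenesis, cholesterol, glucose output, PPARA targets) and the mouse groups. Lipogenesis and cholesterol rows are mostly red in mice 15 to 18, while Srebf1 is not, and Igfbp1 and Pck1 are blue in mice 15, 16 and 17.

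Immune programs showed 1 called gene among 109 list members tested in 12 lists by edgeR (0.917%, against 1.18% of all genes). By DESeq2 the order was the other way, with 13 of 109 called (11.9%, against 5.56% of all genes), 6 of them acute phase genes. Limma called 2 (1.83%, against 1.73%). The Kupffer cell list had 13 of 13 members tested and none called by edgeR (1 lower by DESeq2), 11 on the lower side and a median of -0.21. Its marker Clec4f, a lectin restricted to Kupffer cells in mice, was at 152, 202, 162, 171 and 176 CPM in mice 7 to 12 and 158, 110, 129 and 117 CPM in mice 15 to 18 (log2 fold change -0.42 ± 0.13). The summed level of the list was 772 to 1130 CPM in mice 7 to 12 and 735 to 1010 CPM in mice 15 to 18. Marco, a scavenger receptor, overlapped between the ranges (0.29 ± 0.21), as did Vsig4, a complement receptor (-0.48 ± 0.22), which was lowest in mice 16 and 18 at 19.1 and 20.6 CPM.

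Neutrophil and monocyte genes had no calls by edgeR and overlapped in summed level between the ranges. DESeq2 called 2 of the 4 neutrophil genes tested and 1 of 9 monocyte genes higher. Of the 10 neutrophil genes, 4 passed the filter on low values, so their median of 1.89 covers only the members that could be measured. It was 1.19 without mouse 18 and 2.31 without mouse 9. Ly6g, a defining marker, had no counts in any of the 9 livers. S100a9, a calcium-binding protein abundant in neutrophils, was at 2.12, 1.27, 6.07, 1.14 and 1.15 CPM in mice 7 to 12 and 3.64, 3.21, 11.4 and 24.3 CPM in mice 15 to 18 (log2 fold change 2.21 ± 0.71, and 1.40 without mouse 18 or 2.93 without mouse 9). It was highest in mouse 18, followed by mouse 17 and, within the other range, mouse 9. S100a8, its partner, was at 1.66, 0.965, 5.34, 0 and 1.43 CPM in mice 7 to 12 and 2.83, 3.54, 13.9 and 20.5 CPM in mice 15 to 18, with the same 3 mice on top (log2 fold change 2.48 ± 0.95, and 1.88 or 3.38 without the same mice). Csf3r, the receptor for G-CSF, was at 2.06, 2.06, 2.67, 1.77 and 1.24 CPM in mice 7 to 12 and 3.6, 2.2, 5.78 and 11.2 CPM in mice 15 to 18 (log2 fold change 1.56 ± 0.43). The summed level of the list was 3.31 to 16.1 CPM and 9.43 to 59.7 CPM, which overlapped. Monocyte and recruited macrophage genes (9 of 10 tested) had a median of 0.58 (0.41 to 0.97 without 1 mouse), and their sums were 105 to 137 CPM and 60.3 to 149 CPM. Chil3, a chitinase-like protein of recruited myeloid cells, was at 0.572, 0.482, 1.05, 0.501 and 0.0461 CPM in mice 7 to 12 and 23.4, 0.447, 7.14 and 3.5 CPM in mice 15 to 18 (log2 fold change 4.03 ± 0.96, and 2.81 without mouse 15). Mouse 15 was at the top and mouse 16 at the level of the other range. Ly6c2, the marker of inflammatory monocytes, was at 2.86, 2.85, 4.19, 1.97 and 2.21 CPM in mice 7 to 12 and 3.84, 1.08, 8.11 and 11.1 CPM in mice 15 to 18, again highest in mice 17 and 18 (log2 fold change 1.12 ± 0.53).

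With all 9 livers edgeR called no gene of the lymphoid and interferon lists, which were T cell (6 of 10 tested), NK cell (2 of 8), B cell (5 of 8), plasma cell (4 of 8), dendritic cell (3 of 7), MHC class II (7 of 7), type I interferon (22 of 22) and interferon gamma genes (15 of 16). DESeq2 called 1 T cell gene higher and 1 lower and 1 plasma cell gene lower, and limma 1 T cell gene lower. EdgeR called 1 T cell gene higher without mouse 17 and 1 lower without mouse 18. Most lymphoid genes were near the filter. Trac, the T cell receptor alpha constant gene, was at 1.89, 1.18, 2.04, 1.2 and 2.95 CPM in mice 7 to 12 and 0.271, 0.261, 0.194 and 0.794 CPM in mice 15 to 18, without overlap and lower in mice 15 to 18 (log2 fold change -2.23 ± 0.48, and -2.88 without mouse 18). Cd4 was on the same side (log2 fold change -1.18 ± 0.30, and -0.50 with limma). Lck, the kinase of the T cell receptor, was on the other side at 1.14, 0.833, 0.366, 0.669 and 0.875 CPM in mice 7 to 12 and 1.9, 3.21, 1.17 and 3.18 CPM in mice 15 to 18 (log2 fold change 1.62 ± 0.39). These 3 genes thus did not share a direction, and the list score, the mean centred log2(CPM + 1) of a list, ran from -0.09 to 0.25 and from -0.19 to 0.05 in the 2 ranges. Interferon-stimulated genes had medians of -0.18 (type I) and 0.00 (interferon gamma), which were 0.07 and 0.15 without mouse 16. Their scores separated 1 mouse. Mouse 16 had a type I score of -0.771, while the others of its range lay between 0.0864 and 0.204. Ifit3, an antiviral effector, was at 12.2, 10.8, 14, 13.9 and 10.5 CPM in mice 7 to 12 and 14.3, 3.36, 11.5 and 12.4 CPM in mice 15 to 18. Isg15, the ubiquitin-like modifier, was at 32.9, 34.1, 36.4, 41.5 and 26.4 CPM in mice 7 to 12 and 35, 16.5, 37.8 and 36.6 CPM in mice 15 to 18. Iigp1, a GTPase induced by interferon gamma, was at 49.8, 29.8, 54.6, 42.5 and 46.1 CPM in mice 7 to 12 and 31.5, 14.1, 56.7 and 26.6 CPM in mice 15 to 18. In each of these the library of mouse 16 held the lowest value of the 9.

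Acute phase genes, made by hepatocytes under IL-6 and IL-1, gave edgeR's single immune call. Of 19 members, 1 was called higher (0.812% of all genes) and none lower, with a median of 0.37 (0.22 to 0.47 without 1 mouse). DESeq2 called 5 higher and 1 lower. Lcn2, the siderophore-binding lipocalin, was at 36.7, 68.9, 67.6, 48.2 and 43.3 CPM in mice 7 to 12 and 216, 110, 196 and 683 CPM in mice 15 to 18, without overlap (log2 fold change 2.53 ± 0.47). It lost its call with library totals and without any 1 of 7 mice, all but 17 and 18, and its log2 value was 1.73 without mouse 18. Saa2, serum amyloid A2, was at 64.1, 124, 153, 65.9 and 56 CPM in mice 7 to 12 and 243, 126, 449 and 1960 CPM in mice 15 to 18. Saa1 was at 197, 276, 324, 190 and 251 CPM in mice 7 to 12 and 324, 207, 646 and 2150 CPM in mice 15 to 18. Orm2, an orosomucoid, was at 34, 36.1, 46.8, 32.6 and 42 CPM in mice 7 to 12 and 103, 42.8, 97.5 and 230 CPM in mice 15 to 18. Mouse 18 was highest in all 4 genes, and mouse 16 lay within the levels of mice 7 to 12 in Saa1, Saa2 and Orm2. The list score was -0.36 to -0.07 in mice 7 to 12 and -0.29 to 0.92 in mice 15 to 18, with mice 16 and 18 at the ends.

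**Figure D3:**
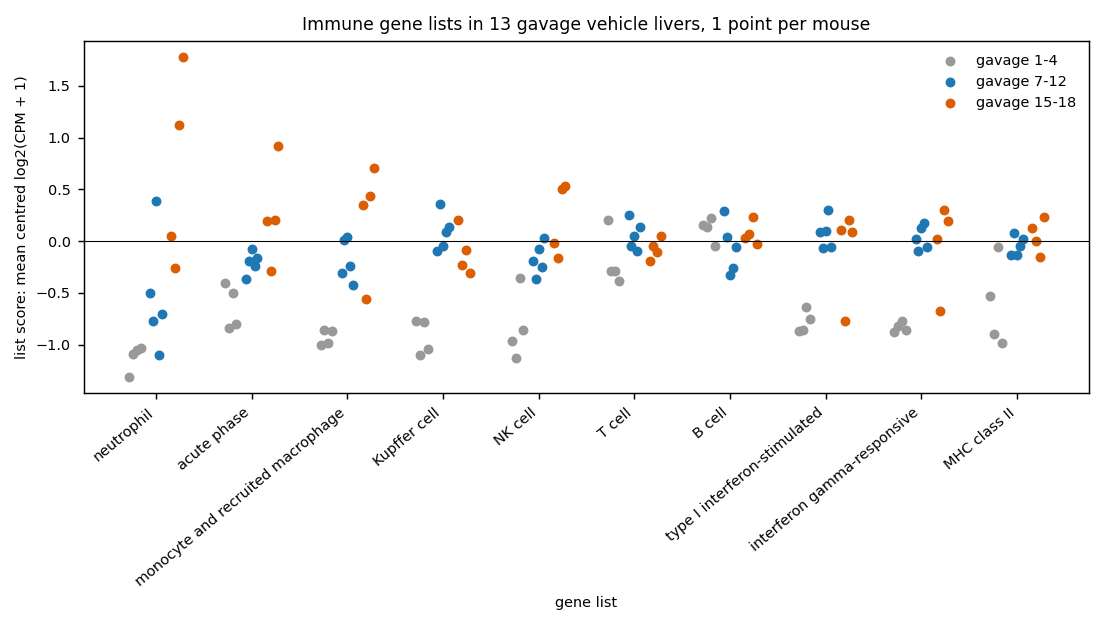
List scores (mean over a list of log2(CPM + 1), each gene centred on its mean over gavage mice 7 to 12 and 15 to 18) for 10 immune lists, 1 point per gavage mouse. Neutrophil and acute phase scores are highest in mouse 18 and spread widely among mice 15 to 18, the interferon scores of mouse 16 lie far below the other mice of its range, and mice 1 to 4 lie low in most lists.

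Other cell types and hepatocyte states differed in part. Sinusoidal endothelium had 1 member of 10 called lower (0.365% of all genes) and none higher, with a median of -0.35, and DESeq2 called 2 lower. The called gene was the Fc receptor Fcgr2b, at 39.5, 40.5, 37.9, 37.9 and 41.8 CPM in mice 7 to 12 and 26.2, 23.5, 23.9 and 22.7 CPM in mice 15 to 18 (log2 fold change -0.71 ± 0.09). Fcgr2b lost its call without mouse 16 and without mouse 9. On all 9 livers, stellate cell, cholangiocyte, hepatocyte, and erythrocyte and platelet lists had no edgeR call, nor did markers of pancreas, fat, mesothelium and muscle, of which 4 of 13 were tested. DESeq2 called 1 stellate cell gene higher and 2 hepatocyte genes lower. EdgeR called 1 stellate cell gene higher without mouse 8, and 0 to 1 hepatocyte genes lower over the fits without 1 mouse. Periportal genes had 3 of 9 called lower (0.365% of all genes). None of the 9 was called with library totals in place of TMM or when any 1 mouse other than mouse 17 was left out. These were Pigr, the polymeric immunoglobulin receptor, at 358, 359, 429, 386 and 396 CPM in mice 7 to 12 and 295, 174, 248 and 229 CPM in mice 15 to 18 (log2 fold change -0.69 ± 0.14). The others were Gls2, the liver glutaminase (log2 fold change -0.47 ± 0.09), and Hal, histidine ammonia-lyase (log2 fold change -0.45 ± 0.09). None of 11 pericentral genes was called by edgeR on all 9 livers, 0 to 1 were called higher without 1 mouse, and DESeq2 called 1 higher and 1 lower. Bile acid genes had 1 call of 9, Slc51b, a basolateral bile acid transporter subunit, at 1.09, 1.32, 1.99, 0.936 and 2.16 CPM in mice 7 to 12 and 3.95, 4.29, 3.45 and 6.5 CPM in mice 15 to 18 (log2 fold change 1.62 ± 0.30). Over all genes 0.812% were called higher. Slc51b was not called with library totals, and of the fits without 1 mouse it was called only without mouse 17. Cyp7a1, the rate-limiting enzyme of bile acid synthesis, was at 99.3, 80.4, 47.8, 129 and 71 CPM in mice 7 to 12 and 13.8, 20, 62.4 and 46.9 CPM in mice 15 to 18 (log2 fold change -1.24 ± 0.45, overlapping).

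All 12 genes of male and growth hormone output were on the lower side (median -0.69), and none was called by edgeR and 1 lower by DESeq2. Hsd3b5, a male-specific steroid dehydrogenase, was at 102, 90.7, 90.5, 69.6 and 79.2 CPM in mice 7 to 12 and 64.3, 46.5, 62.4 and 19.1 CPM in mice 15 to 18, lowest in mouse 18 (log2 fold change -0.84 ± 0.30). Of 8 female-biased and CAR target genes tested, 7 were on the higher side (median 0.74) and 1 was called higher (0.812% of all genes). Cyp2b9, normally predominant in females, was at 16.8, 23.7, 19.5, 44.5 and 20.1 CPM in mice 7 to 12 and 57.6, 83, 56.9 and 136 CPM in mice 15 to 18, with mouse 18 highest (log2 fold change 1.76 ± 0.35). It was not called with library totals, and of the fits without 1 mouse it was called only without mouse 17 or mouse 10. Cyp2a4, a steroid hydroxylase, was at 4.92, 10.5, 5.5, 27.6 and 4.28 CPM in mice 7 to 12 and 44.5, 31.5, 32 and 36.5 CPM in mice 15 to 18, with mouse 10 approaching the other range (log2 fold change 1.78 ± 0.52, not called, and 2.53 without mouse 10). Cyp2b13 was detected at 0.0461 to 0.438 CPM in mice 7 to 12 and at 0.62, 1.83, 0.68 and 13 CPM in mice 15, 16, 17 and 18.

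Immediate early genes, which respond within minutes to handling and growth signals, had no edgeR call, with 9 of 10 members on the lower side. The median was -0.98 (-1.20 to -0.61 without 1 mouse), and 4 lay lower without overlap (3.3% of all genes). DESeq2 called 4 members lower and limma 2. Without mouse 18 or without mouse 10, 1 was called. Fos was at 27.3, 35.7, 29.8, 23.3 and 39.1 CPM in mice 7 to 12 and 0.543, 3.88, 12.9 and 10.2 CPM in mice 15 to 18 (log2 fold change -2.16 ± 0.65). Junb was at 42.1, 57.7, 63.3, 49.5 and 56.1 CPM in mice 7 to 12 and 5.89, 8.91, 9.61 and 32.2 CPM in mice 15 to 18 (log2 fold change -1.91 ± 0.45, and -2.71 without mouse 18). Egr1, an early zinc finger factor, was at 103, 110, 65.4, 52.7 and 67.8 CPM in mice 7 to 12 and 1.94, 50, 52.9 and 50 CPM in mice 15 to 18, so that 1 mouse was far below the other 8 (log2 fold change -1.03 ± 0.67). Mouse 15 had a list score of -1.64, against -0.44, -0.20 and 0.02 for mice 16, 17 and 18 and 0.15 to 0.67 for mice 7 to 12.

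**Figure D4:**
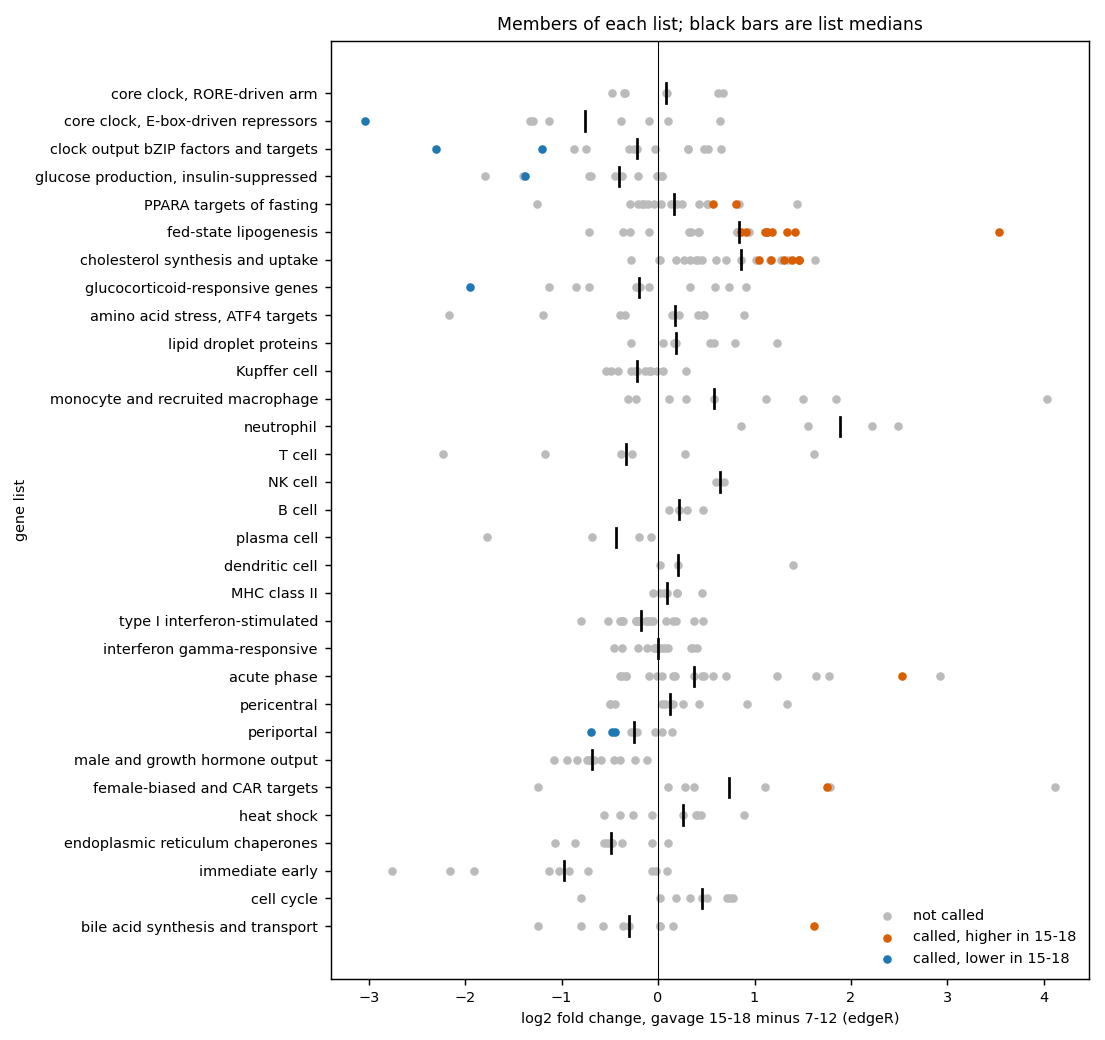
Each point is the edgeR log2 fold change (mice 15 to 18 over 7 to 12) of 1 list member tested, with gene lists down the vertical axis, called genes coloured, and black bars at list medians. Of the lists drawn, lipogenesis (9) and cholesterol (6) hold the most called genes, and no interferon or lymphoid member is called by edgeR.

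Among called genes with at least 1 CPM outside the lists, leaving aside 4 lists chosen after the values were seen, the largest differences upward included Aacs, Chrna4, Gm10639, Gm30692, Gm3776, Smpd3, S100a6, Gsta1 and 2010003K11Rik. Chrna4, a subunit of the neuronal nicotinic acetylcholine receptor, was at 0.743, 0.526, 0.89, 0.602 and 0.461 CPM in mice 7 to 12 and 6.28, 4.88, 8.06 and 6.78 CPM in mice 15 to 18, a tight 10.2-fold difference (log2 fold change 3.35 ± 0.24). Gsta1, an alpha class glutathione S-transferase, was at 19.6, 17.2, 23, 23.7 and 27.4 CPM in mice 7 to 12 and 43.8, 67.8, 87.3 and 64.4 CPM in mice 15 to 18 (log2 fold change 1.58 ± 0.20) and lost its call without mouse 9 or 16. Gsta1 has close paralogs, and the counting could have split reads between them, so its level is uncertain. The largest differences downward were Gm44243, Kantr, AC121973.1, Gm31583, Gm43314, 4930523C07Rik, Upp2, AC127342.1, Gm36264 and Herpud1, mostly unnamed transcripts at low levels. Herpud1, an adaptor of endoplasmic reticulum-associated degradation (ERAD), was at 501, 460, 407, 365 and 367 CPM in mice 7 to 12 and 111, 145, 149 and 199 CPM in mice 15 to 18 (log2 fold change -1.46 ± 0.18) and lost its call without mouse 16. Kantr, a long noncoding RNA, was at 2.12, 1.67, 1.68, 3.08 and 1.29 CPM in mice 7 to 12 and 0.116, 0.186, 0.291 and 0.433 CPM in mice 15 to 18 (log2 fold change -2.90 ± 0.43) and lost its call without mouse 7, 9, 15 or 16.

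Further groups were chosen after their values were seen and support nothing beyond their values. Of 80 cytosolic ribosomal protein genes tested, 78 were on the higher side and the median was 0.45. Of them 14 were called higher (0.812% of all genes) and 44 lay higher without overlap (3.69% of all genes). Rps19 was at 227, 282, 235, 325 and 282 CPM in mice 7 to 12 and 467, 512, 375 and 436 CPM in mice 15 to 18 (log2 fold change 0.74 ± 0.13), and was not called with library totals. Without 1 mouse at a time, 0 to 45 of them were called. All 10 tubulins tested were on the higher side, 4 of them called (0.812% of all genes), with a median of 0.78. Without 1 mouse at a time, 1 to 7 tubulins were called. Tubb2a, a beta tubulin, was at 178, 169, 145, 199 and 146 CPM in mice 7 to 12 and 399, 512, 349 and 374 CPM in mice 15 to 18 (log2 fold change 1.30 ± 0.14). Among 19 glutathione S-transferases, 4 were called higher (0.812% of all genes). Without 1 mouse at a time, 1 to 4 of them were called higher (0.0873% to 2.31% of all genes). Of 12 ERAD genes 2 were called lower, Herpud1 and the ubiquitin ligase Syvn1. Over all genes 0.365% were called lower, and without 1 mouse 0 to 2 of the ERAD genes were. Syvn1 was at 109, 110, 79.5, 127 and 54 CPM in mice 7 to 12 and 33.5, 42.3, 31.5 and 40.1 CPM in mice 15 to 18 (log2 fold change -1.37 ± 0.23), and was not called with library totals. Pgd, an NADPH-producing enzyme of the pentose phosphate pathway, was at 30, 31.3, 30.2, 34.4 and 31.5 CPM in mice 7 to 12 and 66, 79.1, 56.8 and 68.2 CPM in mice 15 to 18 (log2 fold change 1.11 ± 0.11). Aqp8, a water channel of the canalicular membrane, was at 88.2, 104, 110, 113 and 103 CPM in mice 7 to 12 and 209, 244, 191 and 215 CPM in mice 15 to 18 (log2 fold change 1.06 ± 0.11). Cd63, a tetraspanin of lysosomes and exosomes, was at 5.49, 7.45, 7.22, 6.45 and 5.25 CPM in mice 7 to 12 and 12.6, 15.3, 14.3 and 14.7 CPM in mice 15 to 18 (log2 fold change 1.17 ± 0.14). These last 3 genes were tight within each range.

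The spread within the ranges does not use the difference between them. The median pooled within-range SD of log2(CPM + 1) was 0.26 over all 13427 genes. Neutrophil genes had a list median of 0.78, erythrocyte and platelet genes 0.63, immediate early genes 0.57, plasma cell genes 0.56, female-biased genes 0.56, interferon gamma genes 0.48, male output genes 0.47 and type I interferon genes 0.41. Periportal genes at 0.15, endothelial genes at 0.19, PPARA targets at 0.20 and MHC class II genes at 0.21 were below that median. Clock lists lay between, at 0.35 to 0.36, as did lipogenesis at 0.31 and cholesterol genes at 0.35. Of the clock genes, Usp2, a clock-controlled ubiquitin protease, was at 5.2, 5.04, 5.39, 1.37 and 15.6 CPM in mice 7 to 12 and 6.67, 2.98, 2.38 and 2.2 CPM in mice 15 to 18. Ciart, a clock repressor, was at 1.83, 1.32, 1.94, 1.5 and 7.69 CPM in mice 7 to 12 and 1.9, 0.298, 0.194 and 2.09 CPM in mice 15 to 18. Cry1 was at 8.75, 30.7, 6.49, 5.92 and 4.47 CPM in mice 7 to 12 and 11.8, 7.57, 9.42 and 6.42 CPM in mice 15 to 18. Mouse 12 was highest in Usp2 and Ciart as it was in Dbp, and mouse 8 was highest in Cry1. The 10 genes with the largest spread, among those averaging 5 CPM or more, were mostly short or pseudogene transcripts with counts in some livers and 0 in others: AC123659.1, Gm10177, Gm12918, Gm14539, Gm28911, Gm43110, Gm44379, Mir8114, Rpl28-ps1 and Snora64. The mitochondrially encoded mt-Co2 was at 923, 737, 1200, 1770 and 1140 CPM in mice 7 to 12 and 1660, 1570, 30.5 and 1900 CPM in mice 15 to 18, far lower in mouse 17 than in the other 8.

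The saline mice were not used to place the boundary. Set against gavage mice 7 to 12, the 4 saline livers (both routes pooled) gave 0 calls among 13380 genes (0%) by edgeR's quasi-likelihood test, with 542 genes at an unadjusted p under 0.05, while DESeq2 called 41 and limma 1. Nearest to a call was Chrna4, at 1.07, 6.44, 6.23 and 3.34 CPM in the saline mice (intraperitoneal 7 and 8, intravenous 7 and 8), a log2 difference of -2.75 ± 0.49 for gavage 7 to 12 over saline with an adjusted p of 0.666 by edgeR. Aacs was at 49.8, 99.9, 83.4 and 9.33 CPM in the same mice, so 3 of the 4 lay above all of mice 7 to 12 (log2 difference -2.45 ± 0.57, edgeR adjusted p 0.999). Without intravenous mouse 8, edgeR placed 1536 genes at an unadjusted p under 0.05, and 413 to 684 without any other single mouse, with 0 calls each time. The mitochondrially encoded share of that mouse was 25.4%, against 5.11% to 9.24% in the other saline mice. Its part in these counts was not tested, and the lack of calls does not measure likeness. Mice 15 to 18 against saline, which reuses mice 15 to 18, also gave 0 calls among 13572 genes (0%; 559 at an unadjusted p under 0.05, DESeq2 74, limma 1). The 2 comparisons with saline share the saline mice. Nr1d1 was at 44.5 and 54.8 CPM in the intraperitoneal and 20.7 and 22.1 CPM in the intravenous saline mice, all above mice 15 to 18. It was at 14.1 to 46 CPM in gavage mice 1 to 4.

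For each of the 158 called genes, every remaining vehicle mouse was assigned to the nearer range mean on the log2(CPM + 1) scale. The share nearer to mice 15 to 18 was 52.5%, 14.6%, 46.2% and 16.5% in gavage mice 1, 2, 3 and 4, 13.3% and 54.4% in intraperitoneal saline mice 7 and 8, and 84.2% and 25.3% in intravenous saline mice 7 and 8. Mice of 1 group thus lay on different sides. For Pnpla3 the 4 saline livers held 1.64, 2.12, 11.5 and 2.51 CPM. Gavage mice 1 to 4 held 12.1, 4.36, 7.41 and 2.45 CPM of it. In part of the immune lists gavage mice 1 to 4 lay low, with Kupffer cell scores of -1.10 to -0.77 and type I interferon scores of -0.86 to -0.64, each below all mice from 7 to 12. Mouse 16, at -0.771, lay within their interferon range, and their B cell scores of -0.04 to 0.22 lay within those of mice 7 to 12. Gavage mice 1 to 4 had 15637 to 16424 genes at an estimated count of 1 or more, against 16774 to 17600 in mice 7 to 12. Their mitochondrially encoded share was 15.5% to 21.8%, against 12.4% to 21.7% in mice 7 to 12. The part of either in their scores was not tested.

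**Figure D5:**
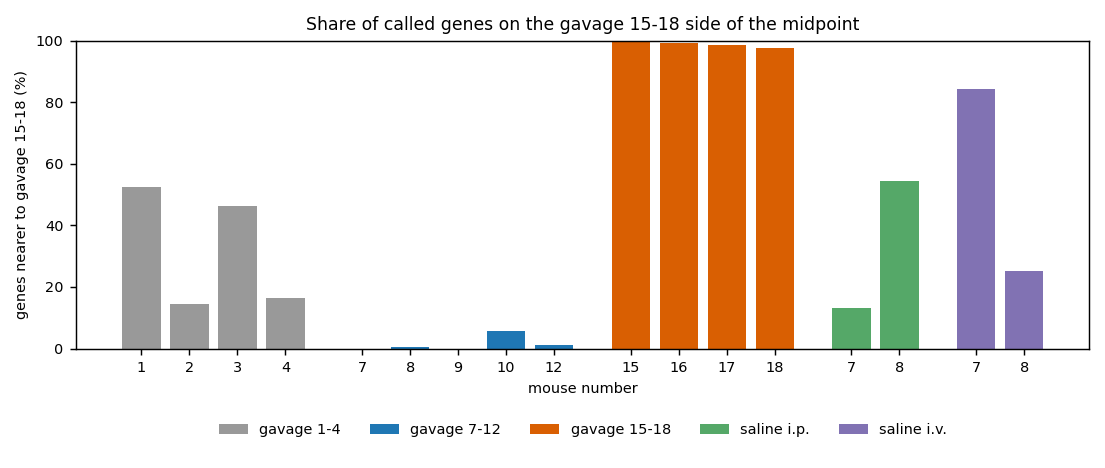
Bars give, for each vehicle mouse (numbers along the horizontal axis, colours for the groups), the percentage of the 158 called genes whose level is nearer to the mean of gavage mice 15 to 18 than to that of 7 to 12. Mice of the 2 ranges sit at the extremes because they chose the genes, and the other 8 mice run from 13.3% to 84.2%.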

How the data were processed

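Per the labels' protocols, RNA of each liver was made into TruSeq stranded mRNA libraries and sequenced single-end on a NovaSeq 6000. The submitters' processing notes name Salmon 1.6.0, R 4.1.3 and the build GRCm39, without their roles. The authors deposited estimated counts per gene that they had not scaled to a common total, since column totals differ. They cover 54307 gene IDs and are not whole numbers. Symbols came from GENCODE M21 names, which matched 51482 IDs. The 9 livers were grouped by the numbers in the labels, and both the members and the gene lists were chosen with earlier results of these data known. Nothing says that the mice were housed apart, so p-values measure only the spread between them.

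Counts were rounded and fitted with edgeR 4.0.16 in R 4.3.3 (TMM, filterByExpr, quasi-likelihood test, two-sided, no covariates), each comparison on its own 2 groups, with calls at a Benjamini-Hochberg adjusted p under 0.05. Printed CPM use TMM factors over all 17 vehicle livers. DESeq2 1.42.0, limma 3.58.1, other scalings and filters, and fits without each mouse were alternatives. No counting intervals are given, because estimated counts are not whole reads. Named genes are list members, the 10 called genes outside the lists with the largest difference in each direction (mean of at least 1 CPM, no overlap, transcript of at least 500 nt) and the 10 with the largest spread (mean of at least 5 CPM). Csnk1d, Pgd, Aqp8, Cd63 and Gstp3 were chosen after their values were seen. Some genes that this rule names are not reported here.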

Additional observations from a re-analysis of the deposited data

Results flagged for a closer look

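A mouse is listed here when its ratio in Dixon's test exceeded the 95% critical value. This ratio is its gap to the nearest other mouse of its range, divided by the highest minus the lowest value of that range. Of 316 sets of values tested, 33 were listed. The test's chance rate of about 1 in 20 holds for independent, normally distributed values. Many sets here are CPM of single genes, and list scores share genes with them, so the number listed by chance is not known.

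Mouse 10 was highest among mice 7 to 12 in several lipid genes: the cholesterol list score was 0.187 (others -0.58 to -0.413), and CPM were 178 in Fdps (others 81.7 to 96.7), 26.1 in Nsdhl, 13.4 in Sqle, 309 in Tkfc, 48.6 in Acaca and 29.6 in Elovl6. It was also highest in Per2 at 7.15 CPM, Cyp2b9 at 44.5 CPM and Cyp2a4 at 27.6 CPM. Mouse 12 was highest in the clock-controlled genes Dbp at 13.1 CPM (others 3.43 to 5.85), Ciart at 7.69 CPM and Usp2 at 15.6 CPM. Mouse 8 was highest in Cry1 at 30.7 CPM (others 4.47 to 8.75), Plin2 at 221 CPM and Ier2 at 84.3 CPM. Mouse 9 was highest in S100a9 at 6.07 CPM. Mouse 7 was highest in Hal at 304 CPM and in the mitochondrially encoded share at 21.7% (others 12.4% to 14.3%).

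Among mice 15 to 18, mouse 18 was highest in the female-biased list score at 0.914, in Cyp2b13 at 13 CPM (others 0.62 to 1.83), Mt1 at 655 CPM, Mt2 at 438 CPM, Angptl4 at 36.2 CPM (others 11.6 to 13.8), Junb at 32.2 CPM, Chac1 at 3.39 CPM and Trac at 0.794 CPM. Mouse 16 was highest in the lipogenesis score at 0.706 (others 0.249 to 0.326) and the plasma cell score at 0.0131, and lowest in the type I interferon score at -0.771 (others 0.0864 to 0.204) and Isg15 at 16.5 CPM. Mouse 17 was highest in Acss2 at 137 CPM, and mouse 15 was lowest in Egr1 at 1.94 CPM (others 50 to 52.9).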

How the results depend on the processing

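Calls between mice 7 to 12 and 15 to 18 numbered 158 with TMM scaling and 14 to 461 when 1 mouse was left out; none of the 158 went uncalled in every such fit, and 25 were called in at least 5 of the 9. They numbered 64 (50 higher, 14 lower) with library totals in place of TMM, 41 without a filter on low counts, 247 at a mean of at least 5 CPM, 774 with DESeq2's Wald test and 232 with limma, and all 158 were among the calls of the last 2. With mitochondrially encoded genes left out before TMM, edgeR called 168, again with all 158 among them. Limma, fitted on log2(CPM + 1), gave log2 fold changes of 2.23 for Chrna4, -1.52 for Dbp, -1.25 for Kantr, -1.61 for Egr1, 0.91 for Lck, -0.54 for Per3, -1.06 for Trac and 2.04 for Chil3. No reversal of a called log2 fold change was seen among the printed genes under any alternative. The saline comparisons gave 0 calls under edgeR whichever mouse was left out, and against mice 7 to 12 and 15 to 18 respectively 41 and 74 with DESeq2 and 1 and 1 with limma. No paired analysis was possible for the 2 gavage ranges because they share no number. For saline against mice 7 to 12, numbers 7 and 8 are shared. With the number as a replicate block edgeR called 0 genes (249 at an unadjusted p under 0.05). Deviations of same-numbered mice from their group means correlated at -0.21 to 0.04, and those of differently numbered mice at -0.01 to 0.19. With so few pairs and both saline routes pooled, this cannot show whether mice of the same number share anything else. With log2(CPM + 0.1), the T cell score difference was -0.37, and within-range spreads were 1.14 (neutrophil), 0.60 (T cell), 0.49 (NK cell), 0.64 (B cell), 0.70 (dendritic cell), 0.56 (stellate cell), 0.45 (cholangiocyte), 0.75 (pancreas, fat, mesothelium and muscle) and 0.43 (cell cycle). With library totals the MHC class II spread was 0.25. The cause of these changes was not tested.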
